A study of Mus musculus with 6 samples.

Results

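The cell cycle and DNA replication genes of the mammary gland described here are 38 genes listed by their known functions, with no value on these arrays in the rule. Of them, 37 were measured and 1, the cyclin gene Ccnb1, had no probe set that names it alone. They stand among 18194 genes in all. RNA came from the inguinal gland of 3 WT and 3 Rac1-/- female mice at involution day 2, that is, 2 days after the pups had been removed from a lactating mother. All 6 mice carried floxed alleles of Rac1, the gene of a small GTPase, together with a YFP reporter that Cre switches on. Only the Rac1-/- mice also carried WAPiCre, a Cre recombinase under the whey acidic protein promoter that acts in luminal epithelial cells from mid-pregnancy onward, and the WT mice were floxed animals without Cre. The groups were age matched, and the exact age of these mice is not given in the sources used here. Each mouse gave 1 Affymetrix array and no RNA was pooled. Stromal, myoepithelial and immune cells of the transgenics keep Rac1. Mice are numbered 1 to 3 within each genotype, and these numbers are names only.

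A dividing cell prepares its DNA origins in G1 by loading the Mcm helicase, copies its genome in S phase with the sliding clamp Pcna and a supply of nucleotides, and separates the copies in mitosis with the help of spindle motors, mitotic kinases and a checkpoint that waits for attached kinetochores. Cyclins and their kinases order these steps, and their genes are switched on in waves, those for replication largely through E2F factors and those for mitosis largely through complexes that bind a CHR element and CCAAT boxes in the promoter. In the mammary gland, epithelial division is high in pregnancy, low in the secreting gland of lactation and low in the first days of involution, when the epithelium dies and is cleared. Whole gland RNA also holds the transcripts of dividing stromal, endothelial and immune cells, and the inguinal gland usually holds a lymph node.

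The promoters of these genes were read for both kinds of element, without any use of the array values. For 31 of the 38 genes RefSeq (GRCm38.p6) gave a window from 250 bases before to 50 bases after a transcript start, and Ccna2, Aurkb, Kif20a, Tpx2, Mcm4, Ccnd1 and Ccne2 were without an entry. The windows were searched on both strands for the CHR (TTTGAA), the CCAAT box (CCAAT) and an E2F site (any of TTTCCCGC, TTTGGCGC, TTTCGCGC or TTTGCCGC). The CHR was found in 11 of 17 windows of mitotic genes (64.7%), in 1 of 11 windows of replication genes (9.09%, Mcm2) and in 16.5% of 17491 windows of protein-coding genes. The CCAAT box was found in 14 of 17 mitotic windows (82.4%), in 8 of 11 replication windows (72.7%) and in 39.0% of protein-coding windows. Each of the 11 mitotic windows with a CHR also held a CCAAT box, a pair that 6.68% of protein-coding windows held. The E2F site ran the other way, with 6 of 11 replication windows (54.5%), 1 of 17 mitotic windows (5.88%, Cdk1) and 2.92% of protein-coding windows. None of the 3 windows of the G1 genes Ccne1, E2f1 and Cdkn1a held any of these letters. Each gene was read in its first listed window only, which need not be at the start used in this gland. Matches at other starts would not be seen, so these windows do not show that E2f1 or Cdkn1a lack such sites. A match is a run of letters in this window and not a measured binding site.

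A few of these windows are printed 5′ to 3′ on the strand of the gene, with every base of a match in capitals. Mki67 (chr7:135716330-135716629, minus strand) and Cdc20 (chr4:118437294-118437593, minus strand) hold the mitotic pair, with CHR and CCAAT letters. Mcm3 (chr1:20820263-20820562, minus strand) and Mcm6 (chr1:128359656-128359955, minus strand) hold E2F and CCAAT letters, and in Mcm6 an overlapping pair of E2F matches forms 1 longer run. Cdkn1a (chr17:29090729-29091028, plus strand), one of the few genes of the list whose genotypes did not overlap, holds no match in this first listed window.
Mki67: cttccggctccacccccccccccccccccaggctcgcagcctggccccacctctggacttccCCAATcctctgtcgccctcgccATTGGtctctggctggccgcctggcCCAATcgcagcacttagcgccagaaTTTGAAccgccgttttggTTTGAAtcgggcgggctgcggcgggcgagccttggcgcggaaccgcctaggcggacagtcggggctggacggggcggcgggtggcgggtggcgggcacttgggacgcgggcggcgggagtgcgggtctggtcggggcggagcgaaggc
Cdc20: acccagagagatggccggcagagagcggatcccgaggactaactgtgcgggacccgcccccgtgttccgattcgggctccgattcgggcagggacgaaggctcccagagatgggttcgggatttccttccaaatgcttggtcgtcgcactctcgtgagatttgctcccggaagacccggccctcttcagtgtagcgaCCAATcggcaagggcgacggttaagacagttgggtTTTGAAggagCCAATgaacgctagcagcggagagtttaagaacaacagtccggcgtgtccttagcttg
Mcm3: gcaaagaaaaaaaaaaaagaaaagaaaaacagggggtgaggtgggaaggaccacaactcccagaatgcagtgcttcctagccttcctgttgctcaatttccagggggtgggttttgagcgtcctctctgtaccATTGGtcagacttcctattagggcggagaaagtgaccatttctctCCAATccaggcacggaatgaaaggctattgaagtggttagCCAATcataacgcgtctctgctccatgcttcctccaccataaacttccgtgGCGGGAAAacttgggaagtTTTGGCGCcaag
Mcm6: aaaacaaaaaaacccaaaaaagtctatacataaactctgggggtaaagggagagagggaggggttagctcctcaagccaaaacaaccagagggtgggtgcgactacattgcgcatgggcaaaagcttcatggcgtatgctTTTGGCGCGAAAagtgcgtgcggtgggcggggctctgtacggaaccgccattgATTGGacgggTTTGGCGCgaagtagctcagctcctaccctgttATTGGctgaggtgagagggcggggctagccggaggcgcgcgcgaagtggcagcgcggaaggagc
Cdkn1a: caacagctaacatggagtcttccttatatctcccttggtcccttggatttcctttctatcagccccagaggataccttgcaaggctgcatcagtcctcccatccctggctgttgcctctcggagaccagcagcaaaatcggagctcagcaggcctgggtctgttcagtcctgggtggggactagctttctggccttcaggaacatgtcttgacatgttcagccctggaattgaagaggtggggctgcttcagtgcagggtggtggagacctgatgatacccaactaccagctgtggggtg

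The arrays differed in ways that bear on every value below. The median intensity as deposited ran from 40.6 to 88.0 and the interquartile range of the log2 intensities from 1.23 to 2.85, and the first principal component (44.3% of the variance) set WT mouse 3 and Rac1-/- mouse 2 apart from the other 4. The actin control signal at the 3′ end minus that at the 5′ end on the log2 scale, one reading of RNA quality, ran from -0.17 to 0.048 in WT and from -1.24 to -0.30 in Rac1-/- glands, so that it did not overlap between the genotypes. The same reading for Gapdh ran from -0.037 to 0.16 and from -0.058 to 0.18, and overlapped. Rac1 itself was at 8.97 to 9.50 in WT and 9.01 to 9.84 in Rac1-/- glands on its brightest probe set, and at 8.74 to 9.89 and 8.14 to 8.77 on another. Whether either lies in the deleted part is not given in the sources used here, and so neither checks the labels. The milk protein gene Csn2 at 14.63 to 15.96 in all 6 mice marks the tissue as mammary gland, and does not show whether it was still secreting. Intensities were quantile normalized and taken to log2, each gene is given by its brightest probe set, and a log2 fold change is Rac1-/- minus WT.

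None of the 37 genes passed the test between genotypes, and most had a somewhat higher mean in the Rac1-/- glands. In limma, 0 of 37 had an adjusted p under 0.05 (smallest adjusted p = 0.946), as did 0% of all genes. At an unadjusted p under 0.05 there were 0 genes higher and 0 lower in Rac1-/- glands, beside 2.23% and 1.82% of all genes. The genotypes did not overlap, with Rac1-/- the higher, for 2 of 37 genes, Mad2l1 and Cdkn1a, and with Rac1-/- the lower for 0, beside 5.41% and 4.2% of all genes. Those counts are at or near the shares of all genes. The mean was higher in Rac1-/- glands for 28 of 37 genes (75.7%), beside 53.9% of all genes, and lower for 9. The median log2 fold change was 0.38 over the 37 genes and 0.060 over all genes, with a range from -0.77 (Aurkb) to 1.15 (Cdc6 and Birc5). The 37 genes were read from the same 6 arrays and are not independent of each other, so this excess is a description of these mice.

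This tilt depended on the scaling, on 1 mouse and on the actin control as a covariate. When every array was scaled to the same median, the 37 genes had a median of 0.049 (21 higher) against -0.12 for all genes, and without normalization between arrays 0.52 (33 higher) against 0.35. Without Rac1-/- mouse 2 it was 0.15 (22 higher) against 0.047. With the actin difference of each array as a covariate it was -0.026 (17 higher) against -0.034, and the list then lay with all genes. Since the actin difference did not overlap between genotypes, this fit cannot separate it from genotype, here or where it is given below. The lowest actin difference, -1.24, was that of Rac1-/- mouse 2, against -0.42 and -0.30 in Rac1-/- mice 1 and 3. The fit with the covariate and the fit without that mouse are therefore not independent of each other. With 3 mice a group the smallest p of an exact permutation test is 0.1, and nothing in the labels ties these mice to litters or days.

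**Figure D1:**
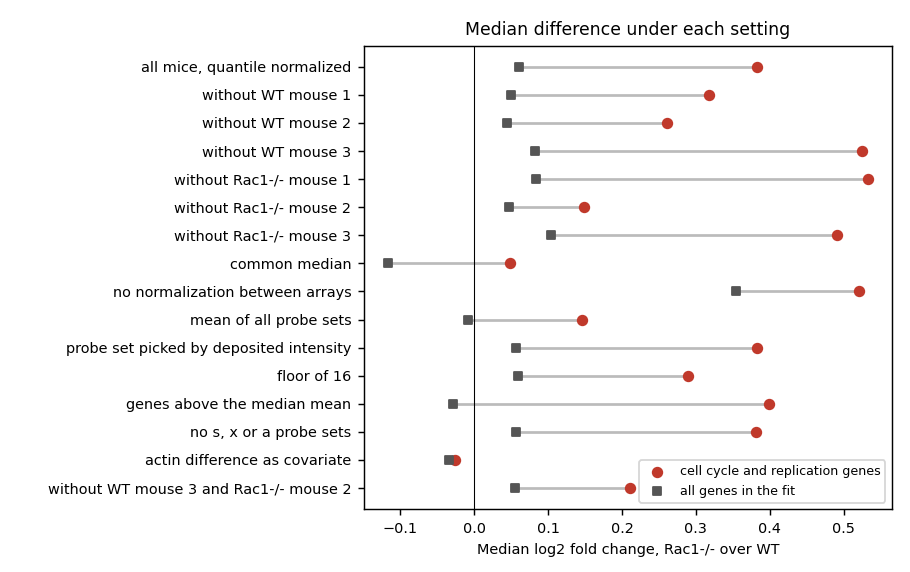
Median log2 fold change (Rac1-/- over WT) of the cell cycle and replication genes (red circles) and of all genes in the same fit (grey squares) for the values as reported and for each of 15 alternatives. Circles lay right of their squares throughout, by 0.32 as reported and by 0.0079 with the actin difference as a covariate.

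The spread between mice set how much could be seen. The pooled SD within genotypes had a median of 0.71 over the 37 genes (0.26 to 1.88), near the 0.69 of all genes, and the difference of means was within 1 pooled SD for 28 genes and beyond it for 9. All 37 of the 95% confidence intervals of the log2 fold change held 0, and all 37 reached past 1 in size, a 2-fold difference, in at least 1 direction. Their median width was 2.59. With 3 mice a group a 2-fold difference could therefore not be told from none, and the intervals do not show that the genotypes were alike.

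**Figure D2:**
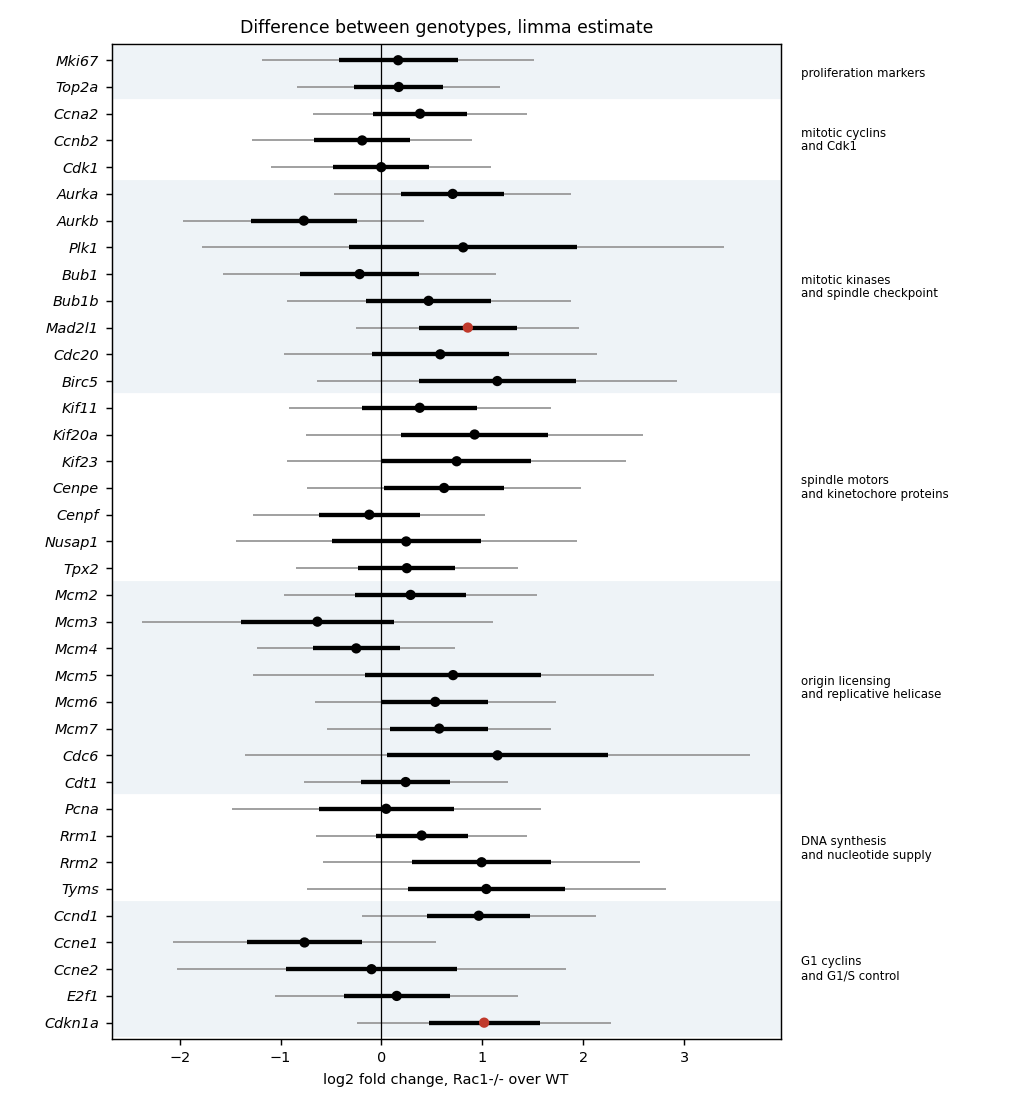
Log2 fold change (Rac1-/- over WT) of each of the 37 genes by role, as limma estimates from 3 mice a genotype, with the SE (thick bar) and the 95% confidence interval (thin line). All 37 intervals cross 0, and the red points mark Mad2l1 and Cdkn1a, whose genotypes did not overlap.

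Many of these probe sets were dim. The mean log2 intensity over all 6 mice ran from 4.10 to 8.97 over the 37 genes, with a median of 6.15. No detection call was used here, and as a gauge of background the probe sets of 39 olfactory receptor genes, chosen for this after the values were seen, had a median of 5.49 and a 95th percentile of 6.59. Of the 37 genes 16 lay above that percentile, as did 38.5% of all genes, and 21 did not, among them Aurka, Aurkb, Plk1, Bub1, Bub1b, Birc5, Cdc6, Mcm5, Ccne2 and E2f1. Probe sets differ in brightness for the same amount of RNA, so these intensities do not order the genes. For the 17 genes above the median mean of all genes alone, 15 had a higher mean in Rac1-/- glands and the median log2 fold change was 0.40, against -0.028 for all genes so bright.

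**Figure D3:**
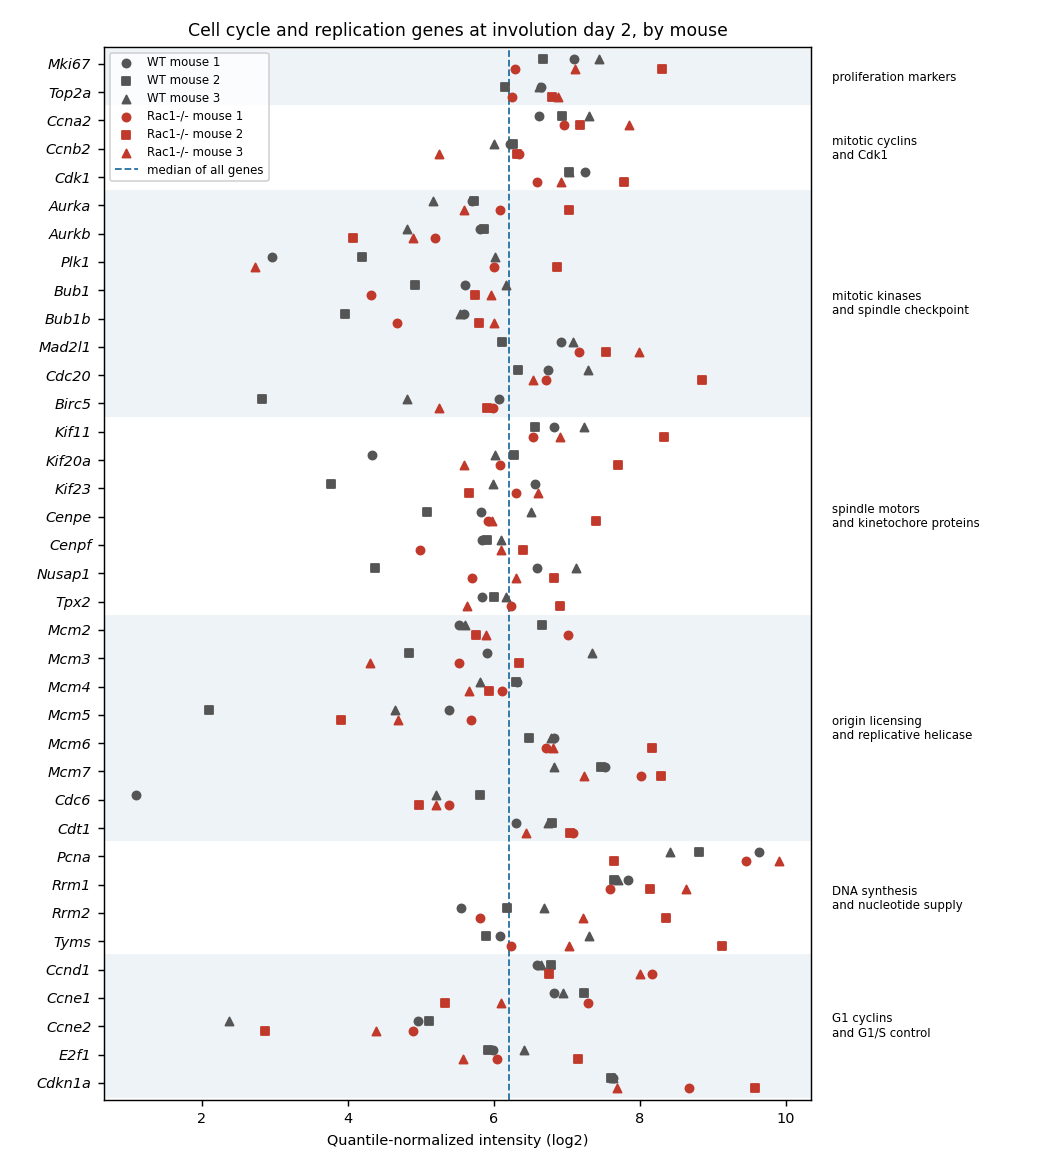
Quantile-normalized log2 intensity of the 37 genes in each mouse, by role, with WT in grey and Rac1-/- in red and 1 marker shape per mouse number. The dashed line is the median of all genes (6.20), and the 2 genotypes overlap on every line but those of Mad2l1 and Cdkn1a.

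The proliferation markers were measured in every gland and overlapped between genotypes. Mki67, which encodes the Ki-67 protein of cycling nuclei, had log2 intensities of 7.09, 6.67 and 7.43 in WT mice 1 to 3 and of 6.28, 8.30 and 7.11 in Rac1-/- mice 1 to 3. The Rac1-/- glands held both the highest and the lowest value, and the log2 fold change was 0.17 ± 0.59 (SE, n = 3 a group, limma adjusted p = 0.989). It turned to -0.44 with scaling to a common median and to -0.37 without Rac1-/- mouse 2, the gland with the highest Mki67. Top2a, the topoisomerase that untangles replicated chromosomes, had 6.65, 6.15 and 6.61 in WT glands and 6.25, 6.79 and 6.88 in Rac1-/- glands. Its whole range was under 1 on the log2 scale, and its log2 fold change of 0.17 ± 0.44 turned to -0.091 with a common median.

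The mitotic cyclins and their kinase were close to even as quantile normalized. Of the 3 measured, 1 had a higher and 2 a lower mean in Rac1-/- glands, and 0 passed the test. Their median log2 fold change was -0.0024. It was -0.27 (0 of 3 higher) with a common median, 0.21 without normalization and -0.57 with the actin covariate. Ccna2, the cyclin of S phase and of entry into mitosis, had 6.61, 6.93 and 7.30 in WT glands and 6.96, 7.18 and 7.85 in Rac1-/- glands, for a log2 fold change of 0.38 ± 0.47 that became -0.0060 with a common median. Ccnb2, a B-type cyclin, had 6.22, 6.26 and 6.002 in WT glands and 6.34, 6.32 and 5.25 in Rac1-/- glands. The low mean of its Rac1-/- group came from mouse 3 alone, and the log2 fold change of -0.19 ± 0.48 was 0.17 without that mouse and 0.21 without normalization between arrays. Cdk1, the kinase that these cyclins activate, ran from 7.02 to 7.24 in WT and from 6.59 to 7.78 in Rac1-/- glands.

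The mitotic kinases and spindle checkpoint genes held the widest range of differences, from -0.77 to 1.15 on the log2 scale. Of 8 genes 6 had a higher and 2 a lower mean in Rac1-/- glands, and the median log2 fold change was 0.64 (0.53 with a common median, 1.01 without normalization and -0.0039 with the actin covariate), and 0 of 8 passed the test. Mad2l1, the checkpoint protein that restrains Cdc20 until chromosomes are attached, had 6.92, 6.11 and 7.08 in WT glands and 7.16, 7.53 and 7.99 in Rac1-/- glands. Each Rac1-/- gland lay above each WT gland, by as little as 0.079 between the nearest 2, and the log2 fold change was 0.86 ± 0.48 (adjusted p = 0.946). It stayed above 0 under all 15 alternatives, from 0.45 to 1.06 (0.56 without WT mouse 2), though the genotypes overlapped with a common median. Aurkb, the kinase of the chromosomal passenger complex, went the other way with 5.81, 5.86 and 4.81 in WT glands and 5.20, 4.07 and 4.90 in Rac1-/- glands, for a log2 fold change of -0.77 ± 0.52. It was -0.44 without Rac1-/- mouse 2, 0.23 when all probe sets of the gene were averaged and 0.019 with the actin covariate. Birc5, which encodes survivin of the same complex and is named after its values were seen, had 6.07, 2.83 and 4.81 in WT glands and 5.99, 5.91 and 5.25 in Rac1-/- glands. The 3 Rac1-/- values lay within the WT range, WT mouse 2 lay far below the other 5 mice, and the log2 fold change of 1.15 ± 0.78 was 0.28 without it and 1.90 without WT mouse 1.

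The other genes of that group overlapped between genotypes as normalized here. Cdc20, the activator of the anaphase-promoting complex, ran from 6.33 to 7.28 in WT and reached 8.85 in Rac1-/- mouse 2, while the other Rac1-/- glands had 6.72 and 6.53. Aurka, the kinase of the spindle poles, ran from 5.16 to 5.72 in WT and from 5.59 to 7.02 in Rac1-/- glands. With a common median, and without normalization between arrays, all its Rac1-/- values lay above WT. Plk1, the polo-like kinase, spread from 2.96 to 6.01 in WT and from 2.73 to 6.86 in Rac1-/- glands, and the checkpoint kinases Bub1 (4.32 to 6.16 over all mice) and Bub1b (3.96 to 6.001) spread within both genotypes.

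The spindle motors and kinetochore proteins had a higher mean in Rac1-/- glands for 6 of 7 genes and a lower one for 1, Cenpf, with a median log2 fold change of 0.38 (0.35 with a common median, 0.83 without normalization and -0.49 with the actin covariate) and 0 of 7 past the test. Kif20a, a kinesin of cytokinesis, had 4.33, 6.28 and 6.01 in WT glands and 6.08, 7.70 and 5.59 in Rac1-/- glands, for a log2 fold change of 0.92 ± 0.73. Cenpe, the kinesin of the kinetochore, had 5.83, 5.09 and 6.51 in WT glands and 5.92, 7.39 and 5.98 in Rac1-/- glands, for a log2 fold change of 0.62 ± 0.60. In both genes Rac1-/- mouse 2 was the highest of all mice and the other Rac1-/- glands lay inside the WT range, and without that mouse the log2 fold changes were 0.30 and 0.14. Kif11, the motor that pushes the spindle poles apart, was also highest in that mouse, with 8.32 against 6.54 to 7.23 in the other 5. Kif23, Nusap1 and Tpx2, which act at the midbody, on spindle microtubules and at the poles, overlapped between genotypes, and the lowest Kif23 (3.77) and Nusap1 (4.38) values were both those of WT mouse 2.

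Among the genes of origin licensing and the replicative helicase, 6 of 8 had a higher and 2 a lower mean in Rac1-/- glands, and the median log2 fold change was 0.41, or 0.0035 (4 of 8 higher) with a common median. None of the 8 passed the test. Mcm7, a helicase subunit, had 7.52, 7.46 and 6.83 in WT glands and 8.01, 8.29 and 7.23 in Rac1-/- glands, for a log2 fold change of 0.57 ± 0.48 that turned to -0.16 with a common median. Rac1-/- mouse 3 lay below 2 of the WT mice. Cdc6, the loader of the helicase, had 1.10, 5.80 and 5.20 in WT glands and 5.38, 4.98 and 5.20 in Rac1-/- glands. Its log2 fold change of 1.15 ± 1.10 came from WT mouse 1, close to the floor of the scale, and was -0.32 without that mouse. The other helicase subunits did not share a direction, since Mcm3 and Mcm4 had a lower mean in Rac1-/- glands and Mcm2, Mcm5 and Mcm6 a higher one, each with overlapping values. Mcm5 was as low as 2.11 in WT mouse 2, and Mcm6 as high as 8.16 in Rac1-/- mouse 2 with 6.48 to 6.82 elsewhere. Cdt1, the partner of Cdc6, ran from 6.30 to 6.80 in WT and from 6.44 to 7.08 in Rac1-/- glands.

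All 4 genes of DNA synthesis and nucleotide supply had a higher mean in Rac1-/- glands, although 2 of the 4 were lower with a common median and 1 of the 4 without normalization, and 0 of 4 passed the test. Their median log2 fold change was 0.70, against 0.12 with a common median, 0.096 with the actin covariate and -0.045 (2 of 4 higher) with probe sets averaged. Pcna, the sliding clamp of the replication fork and among the brightest of these probe sets, had 9.62, 8.81 and 8.42 in WT glands and 9.44, 7.64 and 9.90 in Rac1-/- glands. The Rac1-/- range enclosed the WT range, and the log2 fold change was 0.047 ± 0.67 (adjusted p = 0.997). Rrm2, the regulated subunit of ribonucleotide reductase, had 5.55, 6.18 and 6.68 in WT glands and 5.81, 8.36 and 7.22 in Rac1-/- glands, for a log2 fold change of 0.99 ± 0.69 that was -0.14 when its probe sets were averaged. Tyms, the thymidylate synthase, had 6.09, 5.89 and 7.30 in WT glands and 6.23, 9.13 and 7.03 in Rac1-/- glands, for a log2 fold change of 1.04 ± 0.78. Rrm2 and Tyms were both highest in Rac1-/- mouse 2, the mouse in which Pcna was lowest, and without it their log2 fold changes were 0.38 and 0.21. Rrm1, the other reductase subunit, ran from 7.65 to 7.83 in WT and from 7.59 to 8.64 in Rac1-/- glands.

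The G1 genes held the smallest p-value and another gene without overlap. Of 5 genes 3 had a higher and 2 a lower mean in Rac1-/- glands, and the median log2 fold change was 0.15 (0.15 with a common median and 0.62 without normalization). Ccnd1, the D-type cyclin that links growth signals to G1 and that mammary epithelium needs in pregnancy, had 6.60, 6.78 and 6.64 in WT glands and 8.16, 6.76 and 7.997 in Rac1-/- glands. Rac1-/- mice 1 and 3 lay over 1 log2 unit above WT and mouse 2 lay among the WT glands, so that the log2 fold change was 0.96 ± 0.51 (unadjusted p = 0.092, adjusted p = 0.946 in limma). It stayed above 0 under all 15 alternatives, from 0.59 to 1.83. Cdkn1a, the Cdk inhibitor p21 that p53 induces, had 7.63, 7.60 and 7.63 in WT glands and 8.67, 9.57 and 7.69 in Rac1-/- glands. The WT values were tight (SD 0.017, n = 3), the lowest Rac1-/- value lay 0.052 above the highest WT value, and the log2 fold change was 1.02 ± 0.55 (adjusted p = 0.946). It was 0.56 without Rac1-/- mouse 2. Under the 15 alternatives it ran from 0.030 to 1.50, with overlap between genotypes with a common median, without normalization between arrays and with all probe sets averaged. The E-type cyclins Ccne1 and Ccne2, which start S phase, had a lower mean in Rac1-/- glands with overlapping values, and Ccne1 ran from 6.83 to 7.24 in WT and from 5.33 to 7.29 in Rac1-/- glands. E2f1, the transcription factor of S phase genes, ran from 5.92 to 6.41 in WT and from 5.58 to 7.15 in Rac1-/- glands.

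More of the highest values were in 1 mouse than in any other. Rac1-/- mouse 2 had the highest value of all 6 mice for 16 of the 37 genes (43.2%), beside 30.9% of all genes, and for 10 of the 20 mitotic genes. WT mouse 2 had the lowest value for 12 of 37 (32.4%), beside 18.1% of all genes, and for 8 of the 20 mitotic genes. Within its own genotype WT mouse 3 was the highest for 16 of 37 genes, against 45.4% of all genes, and Rac1-/- mouse 2 for 18 of 37 (48.6%), against 44.0%. The median over the 37 genes was 6.22, 6.15 and 6.61 in WT mice 1 to 3 and 6.23, 6.90 and 6.10 in Rac1-/- mice 1 to 3, and the median of all genes was 6.16, 6.19 and 6.33, and 6.28, 6.40 and 6.22. The lowest and the highest of the 6 medians were thus both in Rac1-/- glands. The summed intensity of the 37 genes, which rests on the brighter ones, did not overlap between genotypes. It was 3177 to 3814 in WT and 4243 to 6413 in Rac1-/- glands as quantile normalized, and was not tested or summed under other scalings. The sum of the further cell cycle genes described below overlapped. Ccnd1 and Pcna did not share the order of the medians, since Rac1-/- mouse 2 was the lowest of its genotype for both. WT mouse 3 and Rac1-/- mouse 2 are the pair of arrays that stood apart, and without both arrays the median for the 37 genes was 0.21 (26 higher) against 0.055 for all genes.

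**Figure D4:**
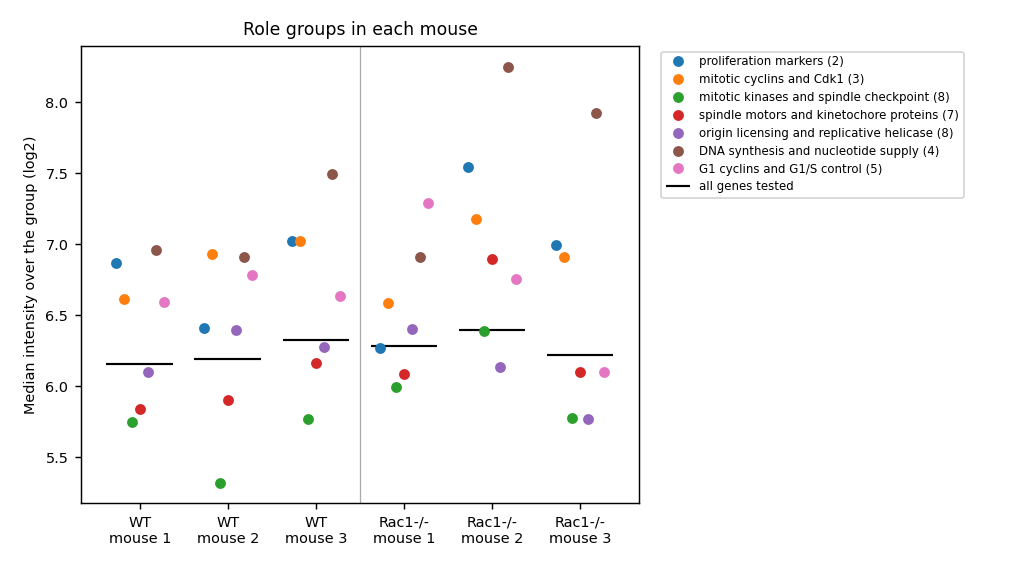
Median log2 intensity over the genes of each role (coloured points, number of genes in parentheses) in each mouse, with the median of all genes as a black bar. Points of 1 colour are to be compared across mice and not with other colours, and the DNA synthesis genes ran from 6.91 to 7.50 in WT and from 6.91 to 8.25 in Rac1-/- glands.

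The values were also set out by the letters in the first listed promoter window. The 12 measured genes with a CHR in their window had a median log2 fold change of 0.33 (9 higher, 3 lower), and the 18 with a window but no CHR 0.55 (15 higher, 3 lower). The 7 genes with an E2F site had a median of 0.53 (5 higher, 2 lower), and the 23 without one 0.40 (19 higher, 4 lower). Mki67 and Cdc20, with the mitotic pair of letters, had 0.17 and 0.58, and Mcm3 and Mcm6, with E2F letters, differed in sign at -0.63 and 0.53. These medians were not tested against each other.

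Other probe sets of the same genes leaned less. The 37 genes had 86 probe sets, 10 genes having 1 and 27 several. In 19 of the 27 the probe sets differed in the sign of the difference between genotypes, and in 8 (Aurka, Ccna2, E2f1, Kif11, Mcm2, Mcm4, Mcm6 and Mcm7) they shared it. Of the 49 probe sets that were not the brightest of their gene 28 had a higher and 21 a lower mean in Rac1-/- glands, with a median difference of 0.062 on the log2 scale. They were dimmer, with a median level of 5.13 against 6.15. Another probe set of Cdkn1a gave a difference of -0.38 with overlapping genotypes, and those of Ccnd1 gave 1.02 and -0.21. On 1 of the 49, a probe set of Tyms, Rac1-/- lay wholly above WT, and on 0 wholly below. The shares of all genes on their brightest probe sets were 5.41% and 4.2%. That probe set of Tyms was dim (mean 4.62) with a difference of 1.63, and the other dimmer ones of Tyms gave -0.39 and 1.30.

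**Figure D5:**
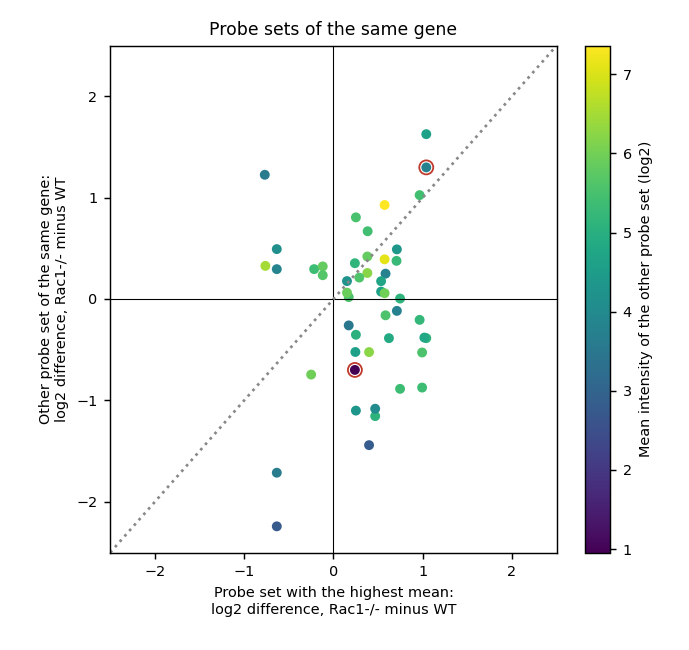
Difference between genotypes (log2, Rac1-/- minus WT) on each of the 49 other probe sets of the 27 genes that have several, against that on the brightest probe set of the gene, coloured by the mean level of the other probe set. Points above 0 on 1 axis and below 0 on the other differ in sign between probe sets, and red rings mark the 2 probe sets with a value at the floor.

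Of 119 further cell cycle genes chosen by function 117 were measured, and 0 passed limma's adjusted threshold. The mean was higher in Rac1-/- glands for 71 and lower for 46, with a median log2 fold change of 0.11 beside 0.060 for all genes. At an unadjusted p under 0.05 there were 3 higher and 1 lower (2.23% and 1.82% of all genes), and 9 genes lay wholly above and 4 wholly below WT (5.41% and 4.2% of all genes), counts near the shares of all genes. The 34 other mitotic genes leaned most, with 29 higher, 5 lower and a median of 0.42 (27 higher and 0.35 with a common median, 19 higher and 0.11 with the actin covariate). Nek2, a centrosome kinase, had a log2 fold change of 2.36 ± 0.76, and Kif14, a kinesin of cytokinesis, one of 2.13 ± 0.70. Both are dim in WT, with means of 4.75 and 3.03, and in Rac1-/- glands their means were 7.11 and 5.16. That of Kif14 lay below 5.49, the median of the olfactory receptor probe sets, in both genotypes. Ndc80, a kinetochore protein named after its values were seen, had -1.80 ± 0.64, with means of 4.62 in WT and 2.82 in Rac1-/- glands, below the median of the olfactory receptor probe sets.

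The other lists were closer to even. Of 33 replication factors 19 were higher and 14 lower (median 0.16, and -0.092 with a common median), where Cdc45 of the active helicase had 1.06 ± 0.50 and Prim2 of the primase 0.99 ± 0.51. Of 12 other cyclins, Cdks and Cdc25 phosphatases 6 were higher and 6 lower (median -0.0013, and 0.28 without normalization). There Cks2, a Cdk-binding subunit, had 0.96 ± 0.60 (0.37 without Rac1-/- mouse 2) and Ccnf, a cyclin of ubiquitin ligases, 1.66 ± 1.04 (0.40 without WT mouse 2). Of 14 E2f, Myb and Fox factors 6 were higher and 8 lower (median -0.049, and 0.36 without normalization). Among them the repressor E2f7 had 1.88 ± 0.81 (0.91 without WT mouse 1) and Mybl2 1.05 ± 0.79 (0.12 without WT mouse 2). Ccnf and E2f7 are dim, with means over all mice of 4.00 and 4.65, below the 5.49 of the olfactory receptor probe sets. Of 13 Cdk inhibitors, Rb family members and p53 targets 5 were higher and 8 lower with a median of -0.075 (-0.61 with a common median, and 0.16 with 8 higher with the actin covariate). Cdkn1b, the inhibitor p27, had -1.27 ± 0.75 (-0.39 without Rac1-/- mouse 2), and Rbl2, the pocket protein p130 of resting cells, -0.56 ± 0.44. Of 11 condensin and cohesin genes 6 were higher and 5 lower (median 0.061, and -0.62 with a common median), where Ncaph had -1.12 ± 0.50 and Smc3 0.61 ± 0.42.

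The cells that could carry these transcripts were followed by their markers. Fewer cells of a type and less RNA per cell cannot be told apart in whole gland RNA. The summed intensity of 10 secretory luminal markers was 176181 to 200826 in WT and 75708 to 114118 in Rac1-/- glands, with 7 of 10 genes at a lower mean (10 of 10 with a common median, 4 of 10 with the actin covariate). This sum rests on the bright milk protein genes, and the other markers of the list were mixed as normalized here. The keratins Krt8 and Krt18 and the junction gene Cldn3 had higher means in Rac1-/- glands, with log2 fold changes of 0.87, 0.90 and 0.93. Epcam and Elf5 had lower means, with -0.14 and -1.45, and none of these passed the test. The 8 myoepithelial markers summed to 1732 to 2410 and 2703 to 4183 (5 of 8 higher, 2 of 8 with a common median), again without overlap. Of these genes only Acta2, the brightest, did not overlap by itself, at 8.40 to 9.67 in WT and 9.71 to 10.87 in Rac1-/- glands. Krt14, Myh11, Mylk and Oxtr had higher means (1.25, 0.34, 0.83 and 0.021), and Krt5, Cnn1 and Trp63 lower ones (-0.18, -0.45 and -0.38). The sum without Acta2 was not taken. The 10 macrophage markers summed to 3187 to 6613 and 3531 to 8752 (9 of 10 higher, 4 of 10 with a common median). The 7 measured T cell markers summed to 443 to 713 in WT and 532 to 941 in Rac1-/- glands (4 of 7 higher). The 7 B cell markers summed to 487 to 598 and 578 to 803 (4 of 7 higher), the 6 endothelial markers to 661 to 1934 and 703 to 989 (2 of 6), the 6 adipocyte markers to 8777 to 15794 and 8705 to 16426 (5 of 6, and 1 of 6 with a common median), and the 5 erythroid markers to 288 to 375 and 222 to 651 (3 of 5). The T cell, endothelial and erythroid sums were each highest, within their genotype, in WT mouse 3 and Rac1-/- mouse 2, the mice with the highest medians of the cell cycle genes and of all genes. None of the markers measured had a value at the floor in any mouse, but many lay at or below 6.59, the 95th percentile of the olfactory receptor genes. Among T cell markers these were Cd3e, Cd3g, Cd4, Cd3d and Cd5, with Cd8a and Cd2 above it. Among B cell markers they were Cd79b, Blk and Pax5, with Cd79a, Ms4a1, Cd22 and Cr2 above it. Among erythroid markers they were Hba-a1, Epb42, Slc4a1 and Klf1, with Alas2 above it. The part of these cells in the values of the cell cycle genes was not tested.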

How the data were processed

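One array was made for each of 3 WT and 3 Rac1-/- mice, from the mammary gland at involution day 2. RNA was amplified with a kit made for small amounts of low-quality RNA (Affymetrix Sensation) and hybridized to mouse GeneChips, and the authors deposited 1 linear intensity for each of 45101 probe sets. How these were summarised and normalized is not given in the sources used here. In the values, the mean of an array after trimming 2% of probe sets at each end was 100, so the deposited intensities had been scaled array by array. No 2 arrays held identical values (0 pairs). An array has no depth in reads, and the number of arrays limits the precision.

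Intensities were quantile normalized, and values below 1 were set to 1 (82 to 1151 per array before normalization) before the log2 scale was used. A single gene symbol was named by 34958 probe sets, several by 932 and none by 9211. For each of 18194 genes the brightest probe set (highest mean over the arrays) naming that gene alone was used, and dim genes were not filtered out. Genotypes were compared with lmFit and eBayes in limma 3.58.1 (R 4.3.3), two-sided, with Benjamini-Hochberg adjustment over all 18194 genes and a threshold of 0.05. The script was tested on simulated data. The alternatives leave out each mouse or the pair of arrays that stood apart, scale to a common median or not at all, average the probe sets of a gene, pick probe sets by deposited intensity, raise the floor to 16, keep genes above the median mean, drop probe sets of types s, x and a, which can bind several transcripts, or add the actin control difference between the ends of the transcript as a covariate.

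The 38 genes, the further lists and the alternatives were chosen with earlier results of these data known. Values of every mouse are given for Mki67, Top2a, Pcna, Ccnd1 and Cdkn1a, for genes without overlap and for the 2 genes of each role with the smallest p, and of each further list the 2 genes with the smallest p are named. Of each cell type list the defining markers were fixed, and the lists are given by their sums. Promoter windows and symbols are those of RefSeq (GRCm38.p6), with the first listed window of each gene.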

Additional observations from a re-analysis of the deposited data

How the results depend on the processing

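None of the 37 genes passed an adjusted p under 0.05 in limma under any of the 15 alternatives. Their median log2 fold change lay above 0 under 14 of them and was -0.026 with the actin covariate, where 17 had a higher mean. Among the genes above the median mean 15 of 17 did. At an unadjusted p under 0.05, leaving out 1 mouse gave 0 to 1 genes higher (Birc5, Rrm2, Ccnd1 or Cdkn1a) and 0 to 1 lower (Ccne1), the actin covariate gave 2 higher (Pcna and Ccnd1), and leaving out WT mouse 3 and Rac1-/- mouse 2 gave 1 higher (Ccnd1). Genes with all Rac1-/- values above WT numbered 3 to 7 and below WT 0 to 3 with 1 mouse left out. With fewer mice a lack of overlap is easier. The counts were 6 and 4 without that pair. Above WT they were 1, 4 and 1 with a common median, without normalization and with probe sets averaged. The shares of all genes under these alternatives were not counted. Neither these counts nor those at an unadjusted p are therefore a result about the list.

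Of 28 genes followed singly under the alternatives, 12 kept their sign in all of those that held the gene (13 to 15 each) and 16 did not, and Ndc80, Cdc20, Mcm3 and Mcm6 were not followed singly. With 1 mouse left out the log2 fold change ran from -0.32 to 2.03 for Cdc6, -0.37 to 0.64 for Mki67, -0.41 to 0.72 for Pcna and -0.38 to 0.17 for Ccnb2. Leaving out 1 mouse also moved, by over 1.5 times and without a change of sign, Top2a (0.011 to 0.37), Ccna2 (0.12 without Rac1-/- mouse 3), Mcm7 (0.35 without WT mouse 3 or Rac1-/- mouse 2) and Rbl2 (-0.35 without WT mouse 3), beside those given with their values. With a common median it turned for Mki67 (-0.44), Top2a (-0.091), Ccna2 (-0.0060), Mcm7 (-0.16), Pcna (-0.76) and Smc3 (-0.014), and without normalization for Ccnb2 (0.21) and Pcna (-0.28). With probe sets averaged it turned for Top2a (-0.024), Aurkb (0.23) and Rrm2 (-0.14), and without s, x and a probe sets for Ncaph (0.14). With the actin covariate it turned for Mki67 (-0.92), Aurkb (0.019), Kif20a (-0.47), Cenpe (-0.49), Rrm2 (-0.27), Tyms (-0.76), Cks2 (-0.30) and Cdkn1b (0.40), and without WT mouse 3 and Rac1-/- mouse 2 for Mki67 (-0.18). The cause was not tested. No paired analysis was possible because the labels give no replicate numbers that the genotypes share. Signal over background limits the 21 dim genes.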
